A study of Mus musculus with 4 samples.

Results

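Natural killer (NK) cells of 2 transplanted mouse tumours, the melanoma B16 and the Lewis lung carcinoma LLC, were described from single-cell RNA counts. NK cells were the cells that the authors' deposited annotation of the joint B16 and LLC table names NK cells. There were 407 of them among 19891 cells, with 276 of 6870 cells in B16 and 131 of 13021 cells in LLC. The B16 library came from C57BL/6J mice. The LLC library came from mice with F11r fl/fl alleles and no LysM-Cre (F11r fl/fl LysM-Cre-), so that F11r was floxed but no LysM-driven recombinase was carried. Each library was 1 pool of 3 mice with subcutaneous tumours, run on the 10x Genomics platform and no age of the mice is stated. Each tumour was thus 1 library, no test of a difference between tumours was possible, and tumour type, mouse strain and library cannot be told apart in any value below.

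NK cells are innate lymphocytes that kill stressed or transformed cells with perforin and granzymes and release cytokines such as interferon gamma. They carry no rearranged antigen receptor. Killing is set by the balance of activating receptors (NKp46, NK1.1, NKG2D and some Ly49 proteins in the mouse) and of inhibitory receptors that bind MHC class I (other Ly49 proteins and CD94 with NKG2A). In the mouse, NK cells mature from CD27-high cells towards cells with CD11b, KLRG1 and the exit receptor S1PR5. In tumours they are also known as a source of the chemokines XCL1 and CCL5, which attract conventional dendritic cells.

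NK cells had a median of 4032 unique molecular identifiers (UMIs, counted RNA molecules) per cell in B16 and 4142 in LLC, with ranges of 767 to 29647 and 987 to 21485. Their totals were 1310179 UMIs in B16 and 717923 in LLC. The whole libraries had medians of 8315 UMIs in B16 and 6174 in LLC. Levels are UMIs of a gene summed over the NK cells of a library and scaled to a total of 1000000 UMIs (CPM). Intervals in brackets are exact 95% intervals that cover counting error only, not the spread between mice or libraries. Those of gene levels and gene ratios treat each UMI as independent, so they also leave out the spread between cells. The libraries shared 29 cell barcodes, of which 2 belonged to B16 NK cells and 1 to an LLC NK cell. Of 13071 genes, 1517 had 0 UMIs in the whole LLC library and 272 in the whole B16 library, and these are left out of every ratio between tumours. They include the NK genes Tbx21, Cd96, Cd160, Gzmk and Gzmm, all without a UMI in LLC, for which no difference is read.

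The NK label held against its markers in both tumours. At least 1 UMI of Ncr1, Klrb1c or Klra8 was found in 273 of 276 B16 cells (98.9%, 96.9 to 99.8) and in 128 of 131 LLC cells (97.7%, 93.5 to 99.5). Ncr1, which encodes the activating receptor NKp46, had 685 CPM in B16 and 974 CPM in LLC NK cells. In naive T cells it had 17.8 CPM in B16 and 16.7 CPM in LLC. The share of cells with an Ncr1 UMI was 85.9% of B16 and 87.0% of LLC NK cells, against 3.23% of B16 and 2.16% of LLC naive T cells, whose median depths were 3736 and 2455 UMIs. Klrb1c, which encodes NK1.1, had 587 CPM in B16 and 347 CPM in LLC NK cells, against 46.6 CPM in B16 and 41.7 CPM in LLC naive T cells. Klra8, which encodes the activating receptor Ly49H, had 340 CPM in B16 and 216 CPM in LLC and was found in 33.7% and 32.1% of NK cells. The 10 genes highest in NK cells over all other cells of the library were receptors of the Klr families, Ncr1 and Gzma in B16. In LLC they were receptors of the same families with Ncr1, Xcl1, Styk1, Gzmc, Gzmd and Gzme. Since the clusters were made from these counts, these values describe the label and do not test it.

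**Figure D1:**
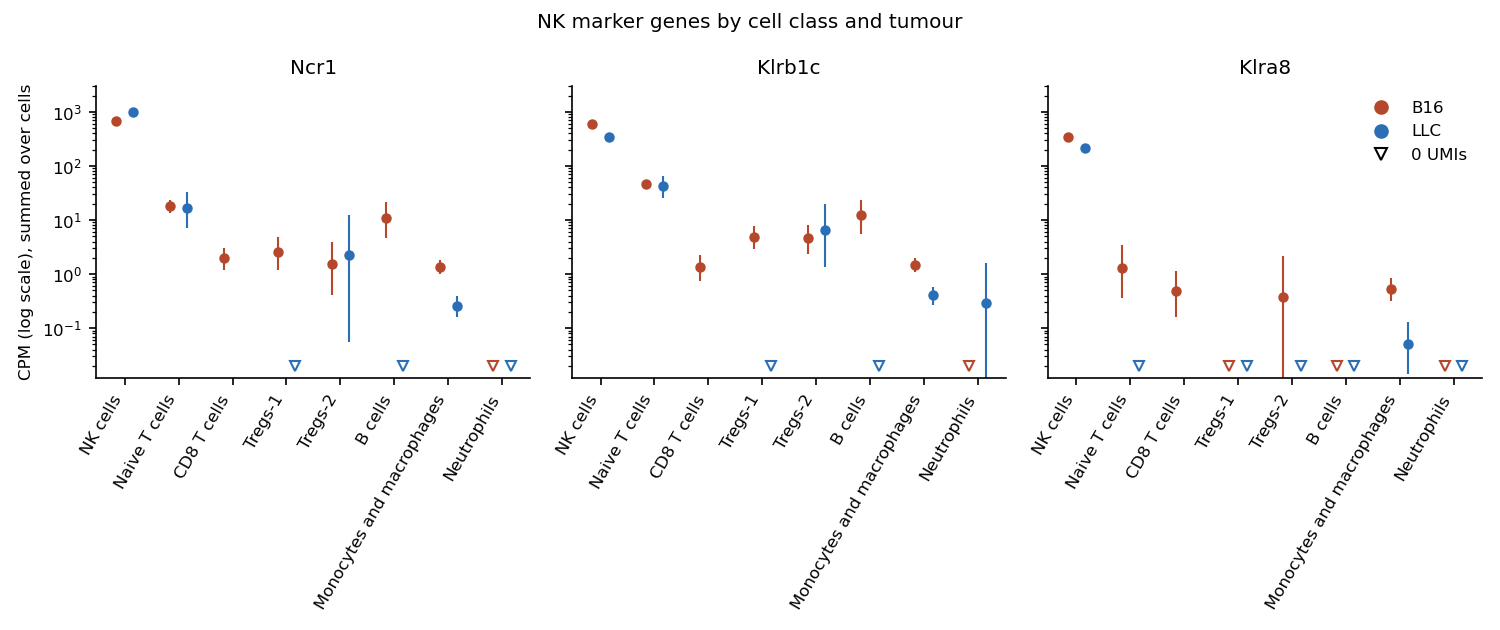
Level of the NK markers Ncr1, Klrb1c and Klra8 (CPM on a log scale, with 95% counting intervals) in 8 cell classes of B16 (red) and LLC (blue). Open triangles mark classes with 0 UMIs. NK cells of both tumours lie between 216 and 974 CPM, and naive T cells lie at 46.6 CPM or less in B16 and 41.7 CPM or less in LLC. CD8 T cells of LLC (4 cells) are not drawn.

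Some NK cells also carried T cell RNA. A UMI of Cd3d, Cd3e or Cd3g, the CD3 chains of the T cell receptor complex, was found in 53 B16 cells (19.2%) and 22 LLC cells (16.8%), and 26 and 15 of these had at least 2 such UMIs. The 16 T cell marker genes summed to 1296 CPM in B16 and 1077 CPM in LLC NK cells, against 7998 CPM in B16 and 6770 CPM in LLC naive T cells. Cd4, Cd8a and Cd8b1 had 0 UMIs in LLC NK cells. Of the type 1 innate lymphoid cell (ILC1) markers, the 3 of 4 that are in the table (Itga1, Cd200r1, Tnfsf10) summed to 88.5 CPM in B16 and 73.8 CPM in LLC. Naive T cells held 98.4 CPM of them in B16 and 102 CPM in LLC, so this sum is no measure of ILC1 content. In the authors' annotation of B16 alone, 264 of the 276 B16 cells (95.7%) were again NK cells, and 4 of the others were naive T cells and 3 immature macrophages.

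NK cells were a larger share of all cells in B16 and a smaller share of lymphocytes in B16. They made up 4.02% (3.57 to 4.51) of B16 cells and 1.01% (0.842 to 1.19) of LLC cells, a ratio of 3.99 (3.23 to 4.95). Among T, NK, B and plasma cells the order turned: NK cells were 8.55% (7.61 to 9.57) of 3228 such cells in B16 and 25% (21.3 to 28.9) of 524 in LLC, a ratio of 0.342 (0.277 to 0.424). Neutrophils were 299 cells in B16 and 1955 in LLC. Without neutrophils in the base, the ratio was 3.55 (2.87 to 4.40). The 11 cells of the LLC library named proliferating CD8 T cells held NK marker RNA at 947 CPM (742 to 1190), against 12.3 CPM in the 437 B16 cells of that name. They also held T cell marker RNA (Cd3d, Cd3e, Cd3g, Cd4, Cd8a, Cd8b1, Trac and Trbc2) at 1388 CPM (1137 to 1677). That sum was 454 CPM in LLC NK cells and 5410 CPM in the B16 proliferating CD8 T cells. Those 11 cells are not counted as NK cells here.

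NK cells were next set against the T cell clusters of the same library that had at least 50 cells: naive T cells, CD8 T cells, Tregs-1 and Tregs-2 in B16, and naive T cells in LLC. The name naive T cells is that of the authors and is not taken as a state here. In that cluster Nkg7 was found in 74.3% of B16 and 51.4% of LLC cells, against 12.7% and 0.98% of B cells. Ccl5 was found in 66.9% and 49.2% of its cells. Over single clusters, the share of measured genes that were at least 2-fold higher in NK cells was 6.35% against B16 naive T cells, 9.83% against CD8 T cells, 6.7% against Tregs-1, 7.42% against Tregs-2 and 9.5% against LLC naive T cells. The share at least 2-fold lower was 4.89%, 10.4%, 11.7%, 16.9% and 8.56% in the same order. Among 5963 genes with at least 20 UMIs in each of the 5 comparisons, 48 (0.805%) were at least 2-fold higher and 42 (0.704%) at least 2-fold lower in NK cells in all 5. The genes highest against every cluster were the NK receptors Klra4, Ncr1, Klra8, Klrb1a, Klri2, Klrb1f, Klra9, Klrb1c, Klrb1b and Klra7, together with Car2 and Xcl1. Klra4, which encodes the activating receptor Ly49D, had 517 CPM in B16 and 262 CPM in LLC NK cells and 0 UMIs in naive T cells of both libraries. Ncr1 was between 38.4-fold and 446-fold higher in NK cells. Car2, a carbonic anhydrase, had 278 CPM in B16 and 215 CPM in LLC NK cells and was between 14.8-fold and 40.2-fold higher. Xcl1, the ligand of the dendritic cell receptor XCR1, had 1575 CPM in B16 and 1589 CPM in LLC NK cells. In naive T cells Xcl1 had 281 CPM in B16 and 167 CPM in LLC, and B16 CD8 T cells had 276 CPM, so that the smallest ratio was 5.60. Klra7, which encodes the inhibitory receptor Ly49G, had the smallest lead of the 12, 3.81-fold over B16 naive T cells, which held 107 CPM.

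Genes lowest in NK cells against every cluster were Cd3e, Cd3d, Cd3g, Ly6a, Ifi27l2a and Tnfrsf4. Cd3e had 27.5 CPM in B16 and 12.5 CPM in LLC NK cells, against 523 CPM in B16 and 547 CPM in LLC naive T cells. Ly6a, which encodes the surface protein Sca-1, had 102 CPM in B16 and 22.3 CPM in LLC NK cells, against 671 CPM in B16 and 678 CPM in LLC naive T cells. Tnfrsf4, which encodes the costimulatory receptor OX40, had 22.9 CPM in B16 NK cells and 0 UMIs in LLC NK cells, against 108 CPM in B16 and 190 CPM in LLC naive T cells. The Tregs-2 cells that enter these comparisons held 33885 CPM of macrophage list RNA in B16, where NK cells held 4124 CPM. The part of that RNA in the Tregs-2 ratios was not tested.

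Between tumours, 7354 genes had at least 20 UMIs over the NK cells of both libraries. Of these, 363 (4.94%) were at least 2-fold higher and 295 (4.01%) at least 2-fold lower in B16 than in LLC NK cells. Counts of list genes past 2-fold below are to be read beside these shares. The median log2 ratio over these genes was 0.10. Scaling by the median of ratios instead took 0.11 off every log2 ratio and gave 276 genes 2-fold higher and 342 genes 2-fold lower. For comparison, 4.64% of 8400 genes were 2-fold higher and 4.95% 2-fold lower in naive T cells, and in B cells 7.95% were higher and 5.6% lower of 5397. A gene was marked as myeloid-borne where neutrophils or the pooled monocytes and macrophages of the library with the higher NK level held at least 2 times the NK level. Of the 363 higher genes 55 carried that mark, and of the 295 lower genes 186 did. Among the 6197 genes without it, 308 were 2-fold higher and 109 were 2-fold lower in B16.

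**Figure D2:**
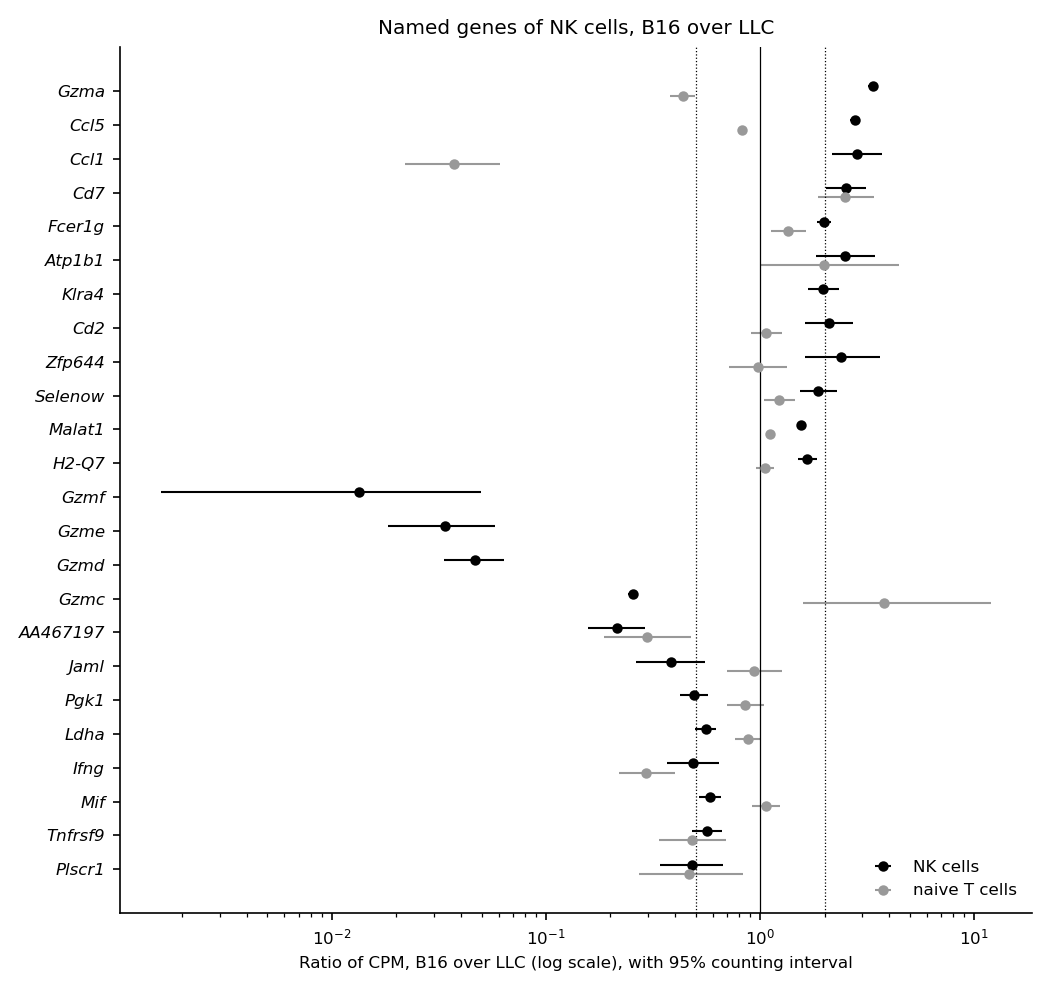
Ratio of CPM, B16 over LLC (log scale, with 95% counting intervals), for the 12 highest and 12 lowest genes of NK cells without the myeloid mark (black), beside the same ratio in naive T cells (grey, where the gene had at least 20 UMIs). Dotted lines mark 2-fold. Gzma lies at 3.37 in NK cells and 0.435 in naive T cells, and Gzmc at 0.254 in NK cells. The naive T cell value of Gzmc (3.80) rests on 1 B16 cell with 84 of 120 UMIs.

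Granzymes, the serine proteases that perforin delivers into target cells, were among the named genes without the myeloid mark in both directions. Gzma had 6942 CPM in B16 and 2059 CPM in LLC NK cells, a ratio of 3.37 (3.19 to 3.56). Gzmc had 1585 CPM in B16 and 6239 CPM in LLC NK cells, a ratio of 0.254 (0.241 to 0.268). Gzmd had 32.8 CPM in B16 and 706 CPM in LLC, Gzme had 10.7 CPM and 316 CPM, and Gzmf had 1.53 CPM and 114 CPM, with ratios of 0.0465 (0.0332 to 0.0635), 0.0338 (0.0182 to 0.0579) and 0.0134 (0.00159 to 0.0498). Gzmb, the granzyme best known for triggering caspases, had a ratio of 1.24 (1.14 to 1.35), with 1394 CPM in B16 and 1123 CPM in LLC. Perforin (Prf1) had 889 CPM in B16 and 703 CPM in LLC. Naive T cells had the opposite order for Gzma, with 266 CPM in B16 and 611 CPM in LLC, a difference between cell types that was not tested. A Gzma UMI was found in 8.48% of B16 and 13.5% of LLC naive T cells. The highest of these cells held 107 of 805 UMIs in B16 and 87 of 293 in LLC. Gzmc had 39.6 CPM in B16 and 10.4 CPM in LLC naive T cells, but 1 B16 cell held 84 of its 120 UMIs, LLC had 5 UMIs, and the shares of naive T cells with a Gzmc UMI were 2.15% in B16 and 2.16% in LLC. Gzmc was also present in B16 CD8 T cells, at 596 CPM, below the level of B16 NK cells. Gzmd, Gzme and Gzmf were higher in B16 CD8 T cells (272, 222 and 595 CPM) than in B16 NK cells. The 4 CD8 T cells of LLC held 9384 CPM of Gzmc, 2681 of Gzmd, 552 of Gzme and 16297 of Gzmf, each above LLC NK cells. These granzymes were thus not particular to NK cells.

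By cell, a Gzma UMI was found in 222 of 276 B16 NK cells (80.4%) and in 72 of 131 LLC NK cells (55.0%). B cells, which should lack the gene, had it in 2.27% of B16 cells and in 0 of 102 LLC cells (which allows up to 3.55%), at median depths of 2432.5 and 1895.5 UMIs. At an equal depth of 2000 UMIs per cell, the shares of NK cells would be 75.6% in B16 and 46.0% in LLC. The median NK cell held 61.9 Gzma UMIs per 10000 UMIs in B16 and 3.96 in LLC. A Gzmc UMI was found in 49 B16 cells (17.8%) and 60 LLC cells (45.8%), against 2.73% of B16 and 0.98% of LLC B cells. At 2000 UMIs the Gzmc shares would be 13.7% in B16 and 44.7% in LLC. Gzma without Gzmc was the state of 70.7% of B16 cells and 37.4% of LLC cells. Gzmc without Gzma was the state of 7.97% of B16 cells and 28.2% of LLC cells, and both were found in 9.78% and 17.6%.

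The Gzmc, Gzmd, Gzme and Gzmf counts came from few cells. In B16, 1 cell held 1106 of the 2076 Gzmc UMIs (53.3%), and the highest LLC cell held 505 of 4479. Without the 4% of cells highest for the gene in each library, the Gzmc ratio was 0.0289, and with each cell's CPM weighted equally it was 0.160. Gzmd was found in 2 B16 cells and 20 LLC cells, and 42 of the 43 B16 UMIs were in 1 cell. Gzme was found in 4 B16 cells and 17 LLC cells. All 82 Gzmf UMIs of LLC were in 1 cell, so the Gzmf difference is that of a single cell. The LLC cells overlapped: each of the 20 Gzmd cells and each of the 17 Gzme cells also had Gzmc, and 16 had both Gzmd and Gzme. Cells with these genes were deeper, with a median of 5519 UMIs for Gzmc cells and 3771 for other cells in B16. In LLC these medians were 5905.5 and 3064 UMIs, and the Gzmd cells had a median of 10785.5. The part of depth in the overlap was not tested.

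**Figure D3:**
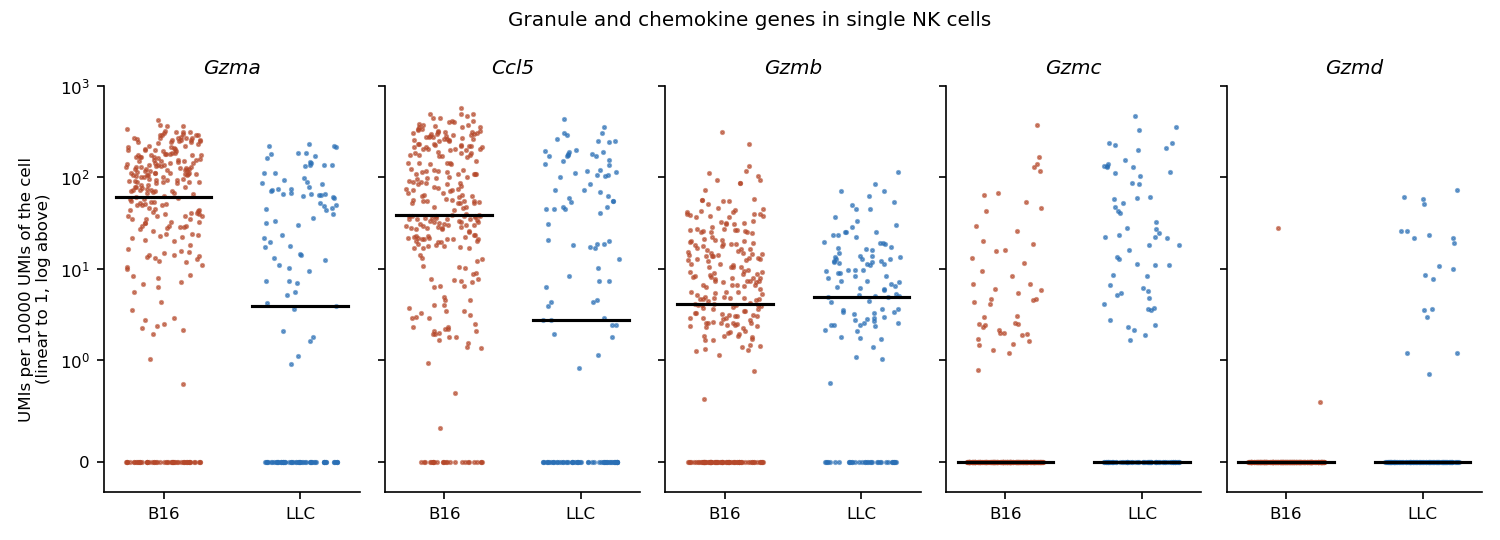
UMIs of Gzma, Ccl5, Gzmb, Gzmc and Gzmd per 10000 UMIs in each NK cell of B16 (red, left) and LLC (blue, right), linear to 1 and log above, with black bars at the median. Gzma and Ccl5 have higher medians in B16 (61.9 and 38.5) than in LLC (3.96 and 2.79), and Gzmc and Gzmd have a median of 0 in both tumours with more cells above 0 in LLC.

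Gzmc, Gzmd, Gzme and Gzmf are neighbouring copies on the minus strand of chromosome 14 (mm10, GENCODE vM21), at 56231441 to 56234656, 56129556 to 56132608, 56117626 to 56120625 and 56205263 to 56211417. Gzmb lies beside them at 56258838 to 56262260, and Gzma lies apart on chromosome 13 at 113093825 to 113100981. Transcripts of Gzmd and Gzme are 90.0% identical and those of Gzmd and Gzmf 82.9%, whereas Gzmc is between 68.6% and 70.3% identical to Gzmd, Gzme, Gzmf and Gzmg. Since reads could be split among near copies in counting, the values of Gzmd, Gzme and Gzmf are uncertain as single genes. Because these copies were found in the same LLC cells, their 250 bases before the annotated start are shown beside those of Gzma, which ran the other way (RefSeq, GRCm38.p6, minus strand, 5′ to 3′). Capitals mark runs of at least 12 bases that Gzmc, Gzmd, Gzme and Gzmf share.
Gzmc, chr14:56234658-56234907: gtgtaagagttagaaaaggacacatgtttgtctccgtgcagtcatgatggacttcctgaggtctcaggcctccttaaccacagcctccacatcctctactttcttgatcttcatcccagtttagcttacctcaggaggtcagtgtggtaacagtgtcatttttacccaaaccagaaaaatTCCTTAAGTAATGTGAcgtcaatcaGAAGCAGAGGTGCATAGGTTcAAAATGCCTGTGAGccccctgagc
Gzmd, chr14:56132594-56132843: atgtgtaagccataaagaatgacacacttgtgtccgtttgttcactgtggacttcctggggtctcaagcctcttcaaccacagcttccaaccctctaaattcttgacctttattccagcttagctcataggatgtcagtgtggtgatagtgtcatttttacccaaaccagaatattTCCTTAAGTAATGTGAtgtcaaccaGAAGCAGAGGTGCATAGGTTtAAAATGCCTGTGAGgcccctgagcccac
Gzme, chr14:56120626-56120875: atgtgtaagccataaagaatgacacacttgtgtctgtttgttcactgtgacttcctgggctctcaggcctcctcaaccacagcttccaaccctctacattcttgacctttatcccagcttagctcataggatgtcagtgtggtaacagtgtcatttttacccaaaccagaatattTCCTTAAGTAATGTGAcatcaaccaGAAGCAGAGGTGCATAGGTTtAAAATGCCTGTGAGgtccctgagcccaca
Gzmf, chr14:56211408-56211657: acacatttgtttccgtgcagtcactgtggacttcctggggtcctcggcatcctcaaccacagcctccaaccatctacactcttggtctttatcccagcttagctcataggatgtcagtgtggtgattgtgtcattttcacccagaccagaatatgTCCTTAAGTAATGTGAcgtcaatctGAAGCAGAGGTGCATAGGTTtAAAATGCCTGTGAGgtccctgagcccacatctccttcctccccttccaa
Gzma, chr13:113100982-113101231: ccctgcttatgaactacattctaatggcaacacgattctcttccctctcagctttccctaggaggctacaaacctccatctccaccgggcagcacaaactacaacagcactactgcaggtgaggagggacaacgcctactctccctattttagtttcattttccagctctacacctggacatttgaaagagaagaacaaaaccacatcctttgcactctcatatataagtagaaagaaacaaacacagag
The 4 copies share 3 such runs, of 16, 20 and 14 bases, in the same order close to the start. Each run was found in 5 of 32841 promoter entries, those of the 4 copies and of Gzmg, and none was found in the Gzma window. Over the window Gzmd and Gzme are 94.8% identical, Gzmc is 80.5% identical to Gzmd, and Gzma is between 44.9% and 47.0% identical to the 4 copies. The letters TGANTCA (AP-1), TTCNNNGAA (GAS) and TNACACCT (T-box), searched on both strands, had no match in the 5 windows, and occur in 6.75%, 7.02% and 2.68% of all entries. That says only that these letters are not in these windows.

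Few other granule genes passed 2-fold. Of 19 measured cytotoxic granule genes, 2 were 2-fold higher (Gzma and Unc13d) and 5 were 2-fold lower in B16 (Gzmc, Gzmd, Gzme, Gzmf and Ctsc), with a median log2 ratio of -0.18 beside 0.10 over all genes. The myeloid mark was carried by 3 of the 19. Among cells with under 1% of UMIs from the myeloid lists the list median was 0.07. Unc13d, which encodes the granule priming factor Munc13-4, had 56.5 CPM in B16 and 22.3 CPM in LLC, a ratio of 2.53 (1.46 to 4.66). Ctsc, the protease that activates granzymes, had 119 CPM in B16 and 293 CPM in LLC, carries the myeloid mark, and had a ratio of 1.04 in cells with under 1% of UMIs from the myeloid lists. Nkg7, a granule membrane protein, had 2874 CPM in B16 and 1908 CPM in LLC. The granzyme inhibitor gene Serpinb9 had 307 CPM in B16 and 359 CPM in LLC.

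Chemokine genes formed the next group of differences. Ccl5, a chemokine that attracts leukocytes, had 7383 CPM in B16 and 2674 CPM in LLC NK cells, a ratio of 2.76 (2.63 to 2.90), and was found in 90.6% of B16 and 55.7% of LLC cells. With each cell weighted equally the Ccl5 ratio was 1.92, under 2-fold. The median NK cell held 38.5 Ccl5 UMIs per 10000 in B16 and 2.79 in LLC. B16 cells that should lack Ccl5 also held some, with a UMI in 21.4% of B16 B cells and 1.96% of LLC B cells. Naive T cells had 4386 CPM of Ccl5 in B16 and 5309.8 CPM in LLC. Ccl4, a related chemokine, had 634 CPM in B16 and 97.5 CPM in LLC NK cells, a ratio of 6.50 (5.09 to 8.42). Ccl4 carries the myeloid mark, with 5505 CPM in B16 neutrophils, and its ratio was 7.94 in cells with under 1% of UMIs from the myeloid lists. A single B16 cell, with no UMI of Ncr1 or Klrb1c, held 234 of its 830 UMIs. Naive T cells had the opposite order for Ccl4, with 159 CPM in B16 and 438 CPM in LLC, where 1 cell held 182 of 210 UMIs. Xcl1 was level between tumours, with a ratio of 0.991 (0.922 to 1.07).

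Ccl1, the ligand of CCR8, and Ifng, which encodes interferon gamma, turned on single cells. Ccl1 had 267 CPM in B16 and 94.7 CPM in LLC, but 251 of the 350 B16 UMIs were in 1 cell and all 68 LLC UMIs in 1 cell. Among cells with no Cd3 UMI its ratio was 0.721. Ifng had 76.3 CPM in B16 and 157 CPM in LLC, a ratio of 0.485 (0.367 to 0.640), and was found in 19.6% of B16 and 15.3% of LLC cells. A single LLC cell held 73 of the 113 UMIs, and without the 4% of cells highest for the gene in each library the ratio was 1.79. Of the 8 effector cytokine and chemokine genes measured, 2 were 2-fold higher (Ccl4 and Ccl5) and 2 were 2-fold lower in B16 (Ifng and Osm).

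Receptors that define NK cells were mostly somewhat higher in B16 without passing 2-fold. Of 13 NK identity genes, 0 were 2-fold different in either direction, 11 had a ratio above 1, and the median log2 ratio was 0.59, beside 0.10 over all genes and 0.30 for the same list in naive T cells. Klra4 had a ratio of 1.97 (1.68 to 2.33), Klrb1c 1.69 (1.47 to 1.96) and Klra8 1.58 (1.31 to 1.91). Ncr1 ran the other way, with a ratio of 0.703 (0.636 to 0.777), as did Klra7, with 406 CPM in B16 and 476 CPM in LLC. Klra3 and Klra9 transcripts are 93.1% identical and those of Klra3 and Klra8 81.0%, so Ly49 values are uncertain as single genes. Per cell, 3 or more of 6 Ly49 genes were found in 35.5% (29.9 to 41.5) of B16 and 30.5% (22.8 to 39.2) of LLC cells, and none of them in 19.2% and 23.7%.

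Of 23 activating receptor and adaptor genes, 1 was 2-fold higher and 1 was 2-fold lower in B16, 17 had a ratio above 1, and the median log2 ratio was 0.46. The higher one was Cd247, which encodes the signalling chain CD3 zeta, with 79.4 CPM in B16 and 37.6 CPM in LLC and a ratio of 2.11 (1.37 to 3.35). Its ratio was 1.96 with the median-of-ratios scaling, 1.77 with each cell weighted equally and 1.64 without myeloid-rich cells, so that the 2-fold call ended under each. Fcer1g, the adaptor through which NKp46 and CD16 signal, had 2494 CPM in B16 and 1254 CPM in LLC, a ratio of 1.99 (1.85 to 2.14). It lies under the bound of the myeloid mark, with 4759 CPM in B16 monocytes and macrophages. In cells with under 1% of UMIs from the myeloid lists its ratio was 2.34. The lower one was Fcgr3, which encodes the antibody receptor CD16, with 75.6 CPM in B16 and 267 CPM in LLC. Fcgr3 carries the myeloid mark, and its ratio was 0.283 in all NK cells and 0.430 in cells with under 1% of UMIs from the myeloid lists. Klrk1, which encodes NKG2D, had 1024 CPM in B16 and 685 CPM in LLC. Hcst, the adaptor of NKG2D, had 498 CPM in B16 and 313 CPM in LLC.

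Among 12 inhibitory receptor genes measured, 2 were 2-fold higher in B16 (Klrg1 and Cd200r1) and 0 were 2-fold lower, and the counting interval of Cd200r1 (0.845 to 7.81) includes 1. Klrg1, an inhibitory receptor for cadherins, had 70.2 CPM in B16 and 11.1 CPM in LLC NK cells, a ratio of 6.30 (3.07 to 15.0). It was found in 53 B16 cells (19.2%) and 6 LLC cells (4.58%), and in 2.73% of B16 B cells and 0 of 102 LLC B cells (up to 3.55%). With each cell weighted equally the Klrg1 ratio was 3.31. Without the 4% of cells highest for it in each library it was 28.1. That step leaves out 5 of the 6 LLC cells with a Klrg1 UMI, which held 8 UMIs in all, so 28.1 is no measure of the difference. In naive T cells Klrg1 had 6.94 CPM in B16 and 29.2 CPM in LLC, and B16 Tregs-1 cells held 223 CPM. Klrd1, which encodes CD94, had 1121 CPM in B16 and 1113 CPM in LLC. Klrc1, which encodes its inhibitory partner NKG2A, had 209 CPM in B16 and 180 CPM in LLC. Lag3 and Ctla4 were low in both tumours, between 16.8 and 29.3 CPM.

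Among the 14 lists drawn in the plot of gene lists, that of mature NK genes had the highest median. Of 13 measured, 6 were 2-fold higher in B16 (Klrg1, S1pr5, Cma1, Gzma, Klf2 and Ccl5) and 1 was 2-fold lower (Itgam). Over all genes 4.94% were 2-fold higher and 4.01% 2-fold lower. The median log2 ratio of the list was 0.89, beside 0.10 over all genes, and the same list had -0.43 in naive T cells. Gzma and Ccl5 were already among the named genes of this comparison. The lists were chosen with earlier results of these data known, so the median is a description only. S1pr5, the receptor that guides NK cells out of tissues, had 45.0 CPM in B16 and 6.96 CPM in LLC NK cells, a ratio of 6.47 (2.62 to 20.6), and was found in 42 B16 cells (15.2%) and 5 LLC cells (3.82%). Cma1, a chymase gene, had 95.4 CPM in B16 and 19.5 CPM in LLC, a ratio of 4.89 (2.81 to 9.21). Klf2, a transcription factor that drives exit receptors in lymphocytes, had 314 CPM in B16 and 145 CPM in LLC, a ratio of 2.17 that was 1.90 with each cell weighted equally. Itgam, which encodes CD11b, had 53.4 CPM in B16 and 117 CPM in LLC and carries the myeloid mark. In cells with under 1% of UMIs from the myeloid lists its ratio was 1.44, so that its direction rests on cells rich in myeloid RNA.

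Genes of immature NK cells showed no such lean. Of 14 measured, 1 was 2-fold higher (Cd7) and 1 was 2-fold lower in B16 (Il2ra), with a median log2 ratio of 0.00. Cd7, a surface protein of T and NK cells, had 378 CPM in B16 and 150 CPM in LLC NK cells, a ratio of 2.51 (2.04 to 3.12). Naive T cells had a Cd7 ratio of 2.50. Cd27 had 96.2 CPM in B16 and 79.4 CPM in LLC, and Kit, the stem cell factor receptor, had 46.6 CPM and 62.7 CPM.

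Homing and adhesion receptors leaned towards B16 by less than 2-fold. Of 16 measured, 1 was 2-fold higher (S1pr5) and 0 were 2-fold lower, 14 had a ratio above 1, and the median log2 ratio was 0.66, against -0.19 in naive T cells. Itga4, the alpha chain of VLA-4, had 293 CPM in B16 and 166 CPM in LLC, a ratio of 1.77 (1.44 to 2.19). Itgb2, the beta chain of LFA-1, had 292 CPM in B16 and 174 CPM in LLC. Cxcr3, the receptor for interferon-induced chemokines, had 71.7 CPM in B16 and 41.8 CPM in LLC. The exceptions were Cd44, the hyaluronan receptor, with a ratio of 0.511 (0.397 to 0.657), and Cxcr4, with 0.620 (0.391 to 0.986). Both carry the myeloid mark.

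Among 16 transcription factors measured, 1 was 2-fold higher in B16 (Klf2) and 0 were 2-fold lower, with a median log2 ratio of 0.27. Eomes, which maintains mature NK cells, had 202 CPM in B16 and 117 CPM in LLC, a ratio of 1.73 (1.35 to 2.24). Gata3 had 63.4 CPM in B16 and 36.2 CPM in LLC. Id2, which is required for innate lymphocytes, was level, with 1174 CPM in B16 and 1118 CPM in LLC. Among 13 ILC1 and tissue residency genes, 1 was 2-fold higher (Cd200r1) and 0 were 2-fold lower. Itga1, which encodes CD49a, had 44.3 CPM in B16 and 40.4 CPM in LLC.

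**Figure D4:**
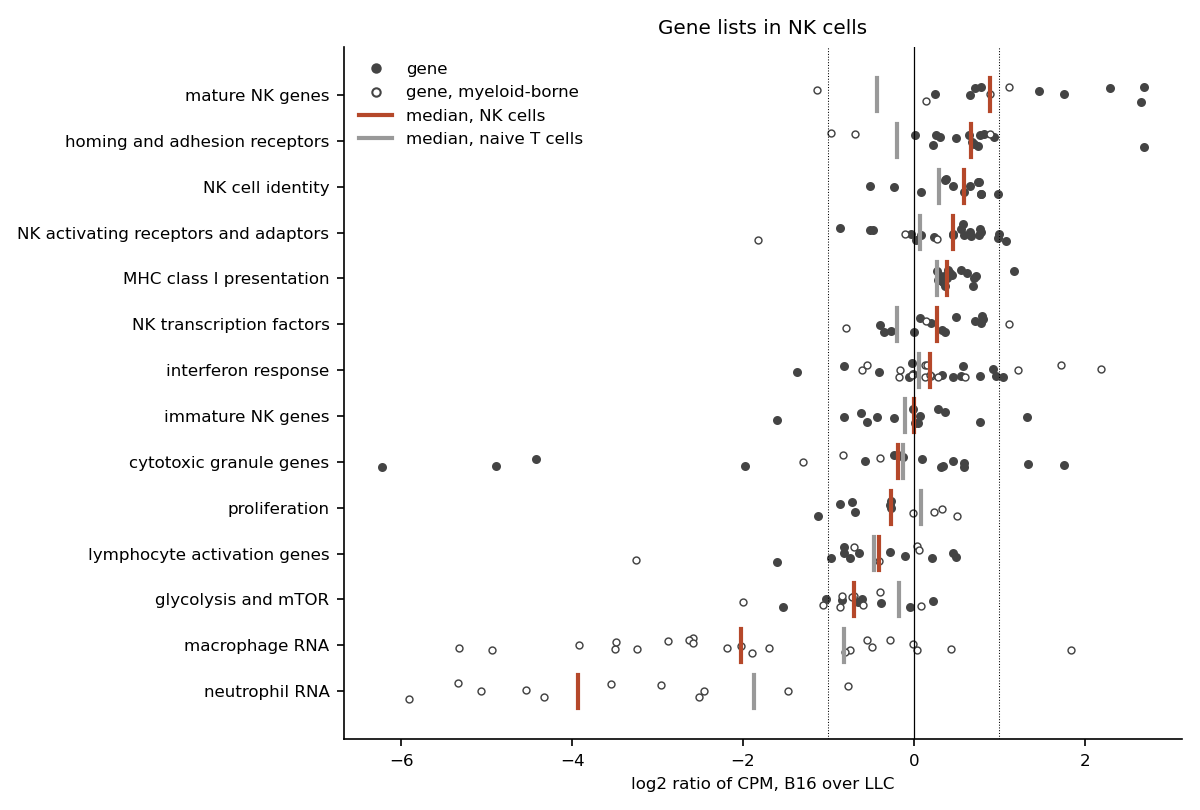
log2 ratio of CPM, B16 over LLC, of each measured gene in 14 gene lists of NK cells, with open circles for genes with the myeloid mark. Red bars are list medians in NK cells and grey bars those in naive T cells, and dotted lines mark 2-fold. The mature NK list has the highest NK median (0.89), and the neutrophil list the lowest (-3.93). Genes with 0 UMIs on 1 side are not drawn.

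MHC class I genes had ratios above 1, nearly all of them under 2-fold. Each of the 18 measured lay above 1, as did 4418 of all 7354 genes, with a median log2 ratio of 0.39 (0.27 in naive T cells), and 1 of them, the peptide editor gene Tapbpl, was 2-fold higher, with 62.6 CPM in B16 NK cells against 27.9 CPM in LLC NK cells. With each cell weighted equally Tapbpl had a ratio of 1.97. H2-Q7, a nonclassical class I gene, had 1182 CPM in B16 and 712 CPM in LLC, a ratio of 1.66 (1.5 to 1.84). H2-K1 had 3292 CPM in B16 and 2521 CPM in LLC. With the median-of-ratios scaling the list median was 0.28.

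Of 29 interferon response genes measured, 4 were 2-fold higher (Ly6a, Rsad2, Irgm2 and Irf1) and 1 was 2-fold lower in B16 (Ifit2), with a median log2 ratio of 0.19, and 15 carried the myeloid mark. Irf1, a transcription factor induced by interferon gamma, had 115 CPM in B16 and 55.7 CPM in LLC, a ratio of 2.07 (1.45 to 3.01), which was 1.92 with the median-of-ratios scaling and 1.72 with each cell weighted equally. The interval of Irgm2 (0.760 to 9.51) includes 1. Isg15 had 28.2 CPM in B16 and 43.2 CPM in LLC. Rsad2, which encodes viperin, had a ratio of 3.29 (1.26 to 10.9) in all NK cells and 0.982 in cells with under 1% of UMIs from the myeloid lists. MHC class II genes, which NK cells of the mouse hardly make, were higher in B16 with the myeloid mark. H2-Eb1 had 177 CPM in B16 and 36.2 CPM in LLC NK cells, and 2548 CPM in B16 and 479 CPM in LLC monocytes and macrophages. Without NK cells of at least 1% myeloid UMIs, the ratio of H2-Eb1 was 1.81, that of H2-Aa 2.04 and that of H2-Ab1 2.19. The named gene Cd74, which also carries the mark, had 645 CPM in B16 and 180 CPM in LLC NK cells. Its ratio was 3.59 in all NK cells and 3.25 without those cells. Without the 4% of cells highest for it in each library it was 1.85.

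Genes of glycolysis and mTOR signalling had ratios mostly below 1. Of 17 measured, 0 were 2-fold higher and 4 were 2-fold lower (Slc16a3, Tfrc, Pgam1 and Pgk1), beside 4.94% and 4.01% of all genes. For 15 the ratio was below 1, and the median log2 ratio was -0.70, beside 0.10 over all genes. The list median was -0.17 in naive T cells and -0.71 in B cells. Pgk1 had 263 CPM in B16 and 535 CPM in LLC, a ratio of 0.491 (0.423 to 0.569). Ldha, which makes lactate, had 453 CPM in B16 and 815 CPM in LLC, a ratio of 0.556 (0.496 to 0.625). Aldoa had 562 CPM in B16 and 885 CPM in LLC. Of the 17 genes 9 carried the myeloid mark. Pgk1 and Ldha lay under its bound, with 1066 CPM of Pgk1 in LLC monocytes and macrophages and 1438 CPM of Ldha in LLC neutrophils. Among NK cells with under 1% of UMIs from the myeloid lists the median was -0.47, and Pgk1 (0.589) and Pgam1 (0.568) no longer passed 2-fold. Tfrc, the transferrin receptor gene, is no glycolysis enzyme.

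Activation genes leaned the same way, with a median log2 ratio of -0.41, and -0.47 in naive T cells. Of 17 measured, 1 was 2-fold higher (Tnfrsf4, with 30 UMIs in B16 and 0 in LLC) and 2 were 2-fold lower in B16 (Il2ra and Ier3). The myeloid mark was carried by 5 of them. Among cells with under 1% of UMIs from the myeloid lists the median was -0.24. It was -0.51 without the 4% of cells highest for each gene and 0.04 without the 5 highest cells of each library. Il2ra, the alpha chain of the interleukin 2 receptor, had 16 CPM in B16 and 48.8 CPM in LLC, a ratio of 0.329 (0.182 to 0.581). Tnfrsf9, which encodes the costimulatory receptor 4-1BB, had 251 CPM in B16 and 444 CPM in LLC, a ratio of 0.565 (0.483 to 0.661), and was found in 37.7% of B16 and 53.4% of LLC cells. In naive T cells Tnfrsf9 had 42.9 CPM in B16 and 89.7 CPM in LLC. Of 17 cytokine receptor genes, 1 was 2-fold higher in B16 (Il21r, with a ratio of 2.10, and 1.95 with the median-of-ratios scaling) and 1 was 2-fold lower (Il2ra). Il18r1, a chain of the interleukin 18 receptor, had 167 CPM in B16 and 96.1 CPM in LLC, and Il2rb had 985 CPM and 932 CPM.

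Division genes were found in few of the cells named NK cells. At least 5 UMIs of 12 division genes were found in 4 B16 cells (1.45%, 0.396 to 3.67) and 4 LLC cells (3.05%, 0.838 to 7.63), and these intervals overlap. The 11 LLC cells named proliferating CD8 T cells that held NK marker RNA are not in these counts. Of 11 proliferation genes measured, 0 were 2-fold higher and 1 was 2-fold lower in B16 (Mcm3, a replication licensing gene, with 27.5 CPM in B16 and 59.9 CPM in LLC, and a ratio of 0.787 with each cell weighted equally). Among 18 dissociation stress genes, 1 was 2-fold higher (Hspa1a) and 2 were 2-fold lower (Egr1 and Dusp1), and 13 carried the myeloid mark. Each of these calls ended under an alternative: Hspa1a had a ratio of 0.985 by the annotation of B16 alone, and in cells with under 1% of UMIs from the myeloid lists Egr1 had 0.586 and Dusp1 0.776. The median log2 ratio of that list was -0.18 in all NK cells and 0.09 in cells with under 1% of UMIs from the myeloid lists. Of 12 TGF-beta response genes, 0 passed 2-fold in either direction.

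The rest of the named genes without the myeloid mark lie outside these lists. Higher in B16 were Atp1b1, a sodium pump subunit, with 176 CPM in B16 and 71.0 CPM in LLC, and the adhesion receptor gene Cd2, with 233 CPM and 111 CPM. Zfp644, a zinc finger gene, had 107 CPM in B16 and 44.6 CPM in LLC, Selenow, a selenoprotein gene, had 362 CPM and 194 CPM, and the nuclear RNA Malat1 had 14280 CPM and 9232 CPM. Lower in B16 were AA467197, with 45.8 CPM in B16 and 213 CPM in LLC, and Jaml, an adhesion receptor of lymphocytes, with 40.5 CPM and 106 CPM. Mif, a secreted cytokine, had 460 CPM in B16 and 787 CPM in LLC, and Plscr1, a phospholipid scramblase, had 52.7 CPM and 110 CPM. AA467197 and Plscr1 were also lower in B16 naive T cells, at ratios of 0.296 and 0.467, whereas Mif was at 1.06 there. In B cells AA467197 had a ratio of 0.132. Some of these genes lie under the bound of the myeloid mark but above their NK level in myeloid cells. AA467197 had 381 CPM in LLC monocytes and macrophages, and LLC neutrophils held 179 CPM of Jaml and 1472 CPM of Mif. Of the genes higher in B16, Malat1 had 28181 CPM in B16 neutrophils and Selenow 408 CPM in B16 monocytes and macrophages. The part of myeloid RNA in their ratios was not tested.

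RNA of neutrophils and macrophages was found in NK cells of both tumours and was higher in LLC. The 16 neutrophil genes summed to 269 CPM (242 to 299) in B16 and 4278 CPM (4128 to 4432) in LLC NK cells, with 1 gene and 0 genes of the list at 0. Naive T cells held 728 CPM in B16 and 2633 CPM in LLC, and B cells 1074 CPM and 11058 CPM. The 24 macrophage genes summed to 4124 CPM (4015 to 4235) in B16 and 10058 CPM (9828 to 10293) in LLC NK cells, with 0 at 0 in both. S100a8, a calprotectin subunit of neutrophils, had 17.6 CPM in B16 and 709 CPM in LLC NK cells, S100a9 had 31.3 CPM and 1049 CPM, and Cxcl2, a neutrophil-attracting chemokine, had 67.9 CPM and 1585 CPM. The macrophage genes Fn1 (10.7 CPM in B16 and 428 CPM in LLC), Arg1 (16 CPM and 493 CPM) and Pf4 (13.0 CPM and 196 CPM) differed likewise. Of 12 measured neutrophil genes 11 were 2-fold lower in B16, and of 23 macrophage genes 14 were, with medians of -3.93 and -2.03 on the log2 scale. In naive T cells these medians were -1.87 and -0.81.

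A few cells held much of this RNA. The share of a cell's UMIs from both lists was at least 1% in 9 B16 cells (3.26%, 1.5 to 6.10) and 19 LLC cells (14.5%, 8.96 to 21.7). The highest 5 cells held 73.7% of the neutrophil list UMIs in B16 and 61.8% in LLC, and 38.1% and 46.7% of the macrophage list UMIs. The median NK cell had 0% of its UMIs from the neutrophil list in B16 and 0.0483% in LLC, and 0.210% and 0.330% from the macrophage list. Without the cells at 1% or more, the number of genes 2-fold lower in B16 was 143, whereas 295 were lower in all NK cells, and the number 2-fold higher was 421, against 363. Without those cells the ratio was 2.85 for Gzma, 2.37 for Ccl5, 4.74 for Klrg1 and 6.36 for S1pr5. It was 0.225 for Gzmc, 0.0459 for Gzmd and 0.596 for Ldha.

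**Figure D5:**
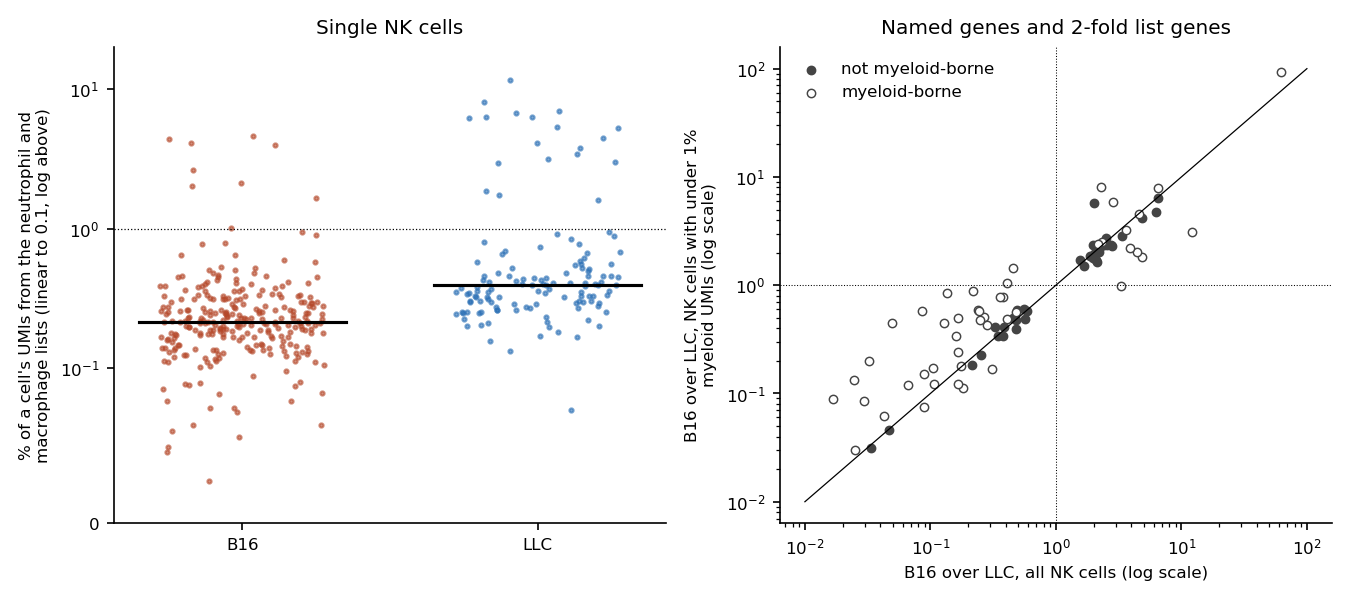
Left, percent of each NK cell's UMIs that came from the neutrophil and macrophage lists in B16 (red) and LLC (blue), linear to 0.1 and log above, with the median as a black bar and 1% dotted. Right, B16 over LLC ratios of the named genes and of list genes past 2-fold, in all NK cells (x) and in NK cells with under 1% myeloid UMIs (y), both log scales, with genes of 0 or undefined ratio not drawn. Filled points lie near the diagonal, and several open points (myeloid-borne) move towards 1 or past it, such as Itgam, at 1.44 without the rich cells and 0.457 in all NK cells. The solid line marks equal ratios.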

How the data were processed

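Single-cell RNA was measured in 1 B16 and 1 LLC library, each a pool of 3 mice. The values are UMI counts per gene and cell that the authors deposited without normalization in 1 joint table, with a cell type for each cell. Cell Ranger and mm10 are named in the submitters' processing notes, and the version is not stated there. The LLC CITE-seq libraries were not used here.

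Cells and their types were taken as deposited, no cell was removed, and no doublet caller was run. The libraries shared 29 barcodes. Counts were summed per cell type and library and scaled to CPM. Ratios have exact conditional binomial 95% intervals, levels exact Poisson intervals and shares exact Clopper-Pearson intervals, all for counting error only. With 1 library per tumour there are no p-values. A gene entered a comparison if its UMIs summed to 20 or more and each library held a UMI of it, and it counted as higher or lower past 2-fold. Named genes were the 12 highest and 12 lowest by the bound of the interval nearest to 1, without mitochondrial, ribosomal, predicted, immunoglobulin, T cell receptor, haemoglobin and melanocyte genes, with at least 100 CPM in the higher library, apart from 6 each with the myeloid mark, and 12 and 6 against the T cell clusters. Shares at 2000 UMIs are hypergeometric expectations, over the cells that deep. Other genes were named from 28 gene lists, and some for values seen in the results. Members and lists were chosen with earlier results of these data known.

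Promoters are from RefSeq (GRCm38.p6) and gene positions from GENCODE vM21. The ratio code was tested on simulated data. These were Poisson counts drawn on the summed totals, without spread between cells, so the test does not cover UMIs that gather in few cells. Python 3.11.15, numpy 2.4.6, scipy 1.17.1, pandas 2.3.3 and matplotlib 3.10.9 were used. Alternatives were the total used for scaling, the UMI minimum, the fold bound, the base of shares, and NK cells without Cd3 UMIs, without myeloid-rich cells, by the annotation of B16 alone or with at least 2000 UMIs.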

Additional observations from a re-analysis of the deposited data

Results flagged for a closer look

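Named and list genes without the myeloid mark were compared between NK cells and naive T cells. For 4 of them the B16 over LLC ratio lay on opposite sides of 1, past 2-fold in both. These differences between the cell types were not tested because each tumour is 1 library. Klrg1 had a ratio of 6.30 in NK cells and 0.238 in naive T cells. Gzma had 3.37 in NK cells and 0.435 in naive T cells, of which 8.48% in B16 and 13.5% in LLC had a Gzma UMI. Gzmc had 0.254 in NK cells and 3.80 in naive T cells, where it held 39.6 CPM in B16 and 10.4 CPM in LLC. That naive T cell ratio rests on 1 B16 cell with 84 of 120 UMIs, against 5 UMIs in LLC, and equal shares of naive T cells (2.15% in B16 and 2.16% in LLC) had a UMI. Ccl1 had 2.82 in NK cells and 0.0374 in naive T cells, and most of its NK UMIs were in 1 cell of each library. The named gene Ccl4, which carries the myeloid mark, had 6.50 in NK cells and 0.363 in naive T cells. Its level in LLC naive T cells rests on 1 cell with 182 of 210 UMIs.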

How the results depend on the processing

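No paired analysis was possible because each tumour is 1 library. The NK share over all cells was 3.99 times as high in B16, and 0.342 times over lymphocytes. The 363 higher and 295 lower genes between tumours became 113 and 122 with a minimum of 50 UMIs, 931 and 738 with 5 UMIs, and 1140 and 685 at 1.5-fold. Among list genes, 26 were higher and 45 lower. With 5 UMIs 43 were higher, and at 1.5-fold 76 were higher and 80 lower. Against the B16 T cell clusters 104 genes were higher and 109 lower in NK cells, and against LLC naive T cells 570 and 514. With 50 UMIs these were 51 lower in B16, and 237 and 199 in LLC. With 5 UMIs they were 159 and 246 in B16, and 1257 and 1175 in LLC. At 1.5-fold they were 283 and 244 in B16, and 1076 and 1129 in LLC.

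In NK cells with under 1% myeloid UMIs, 421 genes were higher, and 143 genes and 28 list genes were lower in B16, and 184 were lower against the B16 T cell clusters. There the ratio of Ctsc was 1.04, of Itgam 1.44 and of Rsad2 0.982. With both myeloid lists out of the total, and so untested, 21 list genes were lower. In NK cells without Cd3 UMIs, 170 genes were lower against the B16 T cell clusters and the ratio of Ccl1 was 0.721. By the annotation of B16 alone, Hspa1a had a ratio of 0.985.

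A pair of alternatives was chosen after seeing the data. Without the 5 highest cells of each library for each gene, which are 1.81% of B16 and 3.82% of LLC NK cells, 790 genes were higher and 125 lower, 47 list genes were higher, Ifng had a ratio of 2.38 and Hspa1a 0.754. Because that removes a larger part of LLC, the highest 4% of cells were left out of each library next, and then 305 were higher and 229 lower, with Ifng at 1.79 and Hspa1a at 0, where no B16 UMI was left. Leaving out the 29 shared barcodes, also chosen after seeing the data, reversed no gene. Under the alternatives that can change a gene's ratio, 627 ratios moved by no more than their counting interval, 187 moved further and 9 reversed. The causes of these changes were not tested.

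Depth limits what could be detected: 0 UMIs over the NK cells allow up to 2.82 CPM in B16 and 5.14 CPM in LLC.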

Other observations

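F11r, which encodes the junctional adhesion molecule A and carries floxed alleles in the LLC mice, had 0 UMIs in B16 NK cells, which allows up to 2.82 CPM, and 16 UMIs in 11 LLC NK cells (22.3 CPM). Monocytes and macrophages held 48.7 CPM in B16 and 85.0 CPM in LLC. Of 15 measured genes near F11r on chromosome 1, 2 were 2-fold higher (Ly9 and Ifi211) and 2 were 2-fold lower in B16 (Fcgr3 and Fcgr2b). Over all genes 4.94% were 2-fold higher and 4.01% 2-fold lower. The list median was 0.50 on the log2 scale, beside 0.10 over all genes, and 0.17 with each cell weighted equally. The same list had -0.19 in naive T cells and -0.11 in B cells. The myeloid mark was carried by 5 of the 15 genes. Plasma cell RNA was also found in B16 NK cells, where Igkc had 172.5 CPM, against 2.79 CPM in LLC NK cells. Of the NK genes with 0 UMIs in the whole LLC library, Tbx21 had 93.9 CPM, Cd96 51.1 CPM and Cd160 128 CPM in B16 NK cells.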
